A study of Mus musculus with 28 samples.

Results

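The Egr, Nr4a and Tox transcription factor genes examined here are 10 genes of the T cell receptor response: Egr1, Egr2, Egr3, Nr4a1, Nr4a2, Nr4a3, Tox, Tox2, the Egr corepressor gene Nab2 and the immediate early gene Ier2. They were chosen by symbol, and each was found once, which makes 10 of the 25124 genes in the expression table. All 10 passed the filter on low values, which kept 12182 genes with at least 1 TPM, a read number scaled for gene length and library size, in at least 6 libraries. The libraries came from CD4+ T cells of the small intestinal lamina propria, the connective tissue under the gut epithelium. The cells were sorted live on CD45, CD90.2, TCRb and CD4. Every mouse carried the T-bet-ZsGreen reporter, a fluorescent read-out of the T-bet gene, which is not among these sort markers. Mice were either colonised and free of specific pathogens (SPF) or germ-free (GF), and received aCD3, an antibody to the CD3 chains of the T cell receptor, or an isotype control antibody. In each of both SPF groups 6 libraries were made, with 3 from each sex. Among the GF libraries 10 were isotype controls, with 5 from each sex, and 6 were from aCD3 mice, of which 1 was female. A replicate name such as F1 gives the sex and the number within a group. The dose, the time between antibody and harvest and the age of the mice were not used here.

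Engagement of the T cell receptor switches on immediate early genes within minutes, through calcium and MAP kinase signals that act on factors already present in the cell. Egr1, Egr2 and Egr3 encode zinc finger factors, and Nab2 encodes a corepressor that binds Egr proteins and is itself an Egr target. Nr4a1, Nr4a2 and Nr4a3 encode orphan nuclear receptors that are widely used as read-outs of recent receptor signalling. In T cells that are stimulated persistently, Egr2, Egr3, the Nr4a factors and the HMG-box factors Tox and Tox2 are associated with anergy, tolerance and exhaustion, states in which cytokine output is restrained and inhibitory receptors are displayed.

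In SPF mice 6 of the 10 genes passed the test between aCD3 and isotype: Nr4a3, Tox, Nr4a1, Ier2 and Nr4a2 were lower after aCD3 and Nab2 was higher. That is close to the share of all genes, 64.8% called and 50.7% lower. With libraries scaled by the median of ratios 4 were higher and 2 lower, beside 30.6% and 29.3% of all genes. Nr4a1, Nr4a2 and Ier2 were not called on that scale. Of the 10 genes Nr4a3 moved furthest: on the TPM scale it fell by 2.39 on the log2 scale, to 17.7% of its isotype mean. In GF mice none passed, beside 7.08% of all genes. The GF aCD3 libraries were spread widely, with Nr4a3 ranging from 26.7 to 225 TPM. Between the aCD3 groups Nr4a3, Tox and Nr4a2 were called higher in GF than in SPF mice, beside 48.9% of all genes called higher. Their libraries did not overlap, beside 13.0% of all genes. Nr4a2 was not called in this comparison on the median of ratios scale. The GF aCD3 libraries F1, M3 and M4 had Lag3 within the GF isotype range, and the Nr4a3 difference was smaller without them.

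The libraries held 6766841 to 17876382 reads in genes. Summed T cell identity markers lay at 1868 to 2504 TPM in all 28, so the labelled cell type was present throughout. Colonisation cannot be told apart from the numbering of the libraries in the column headers: SPF libraries carry the numbers 1 to 12, and GF libraries 25 to 33 and 48 to 54. The labels do not say that each library is a separate mouse, so p-values measure the spread between these libraries. The library kit is described as a total RNA kit while the molecule is given as polyA RNA, and whether reads in introns were counted is not stated in the sources used here. The TPM values divide by the whole span of a gene, so levels are compared between libraries and not between genes. The GF aCD3 libraries F1, M3 and M4 stood apart from the other 3 of their group in Lag3, as given below, and the differences of the 10 genes that involve GF aCD3 are also given without those 3 where a result turns on them. In bulk RNA, fewer cells that express a gene and less RNA per cell cannot be told apart.

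Promoter sequence is shown for the Nr4a genes because all 3 were called lower in SPF aCD3 on the TPM scale, and for Egr2 because its start region holds a CArG box, the motif by which serum-responsive genes are known. RefSeq windows of GRCm38, here the 250 bases before each start, matched 6 of the 10 genes: Egr2, Nr4a1, Nr4a2, Nr4a3, Nab2 and Tox2. Capitals mark the CArG box, the binding motif of SRF, in Egr2, and in the Nr4a genes the core of the cAMP response element, TGACG, read on either strand (CGTCA on the strand shown). Each sequence is given 5′ to 3′ on the strand of its gene.
Egr2, chr10:67537772-67537831, plus strand: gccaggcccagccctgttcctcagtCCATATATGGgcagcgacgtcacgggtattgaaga
Nr4a1, chr15:101266596-101266845, plus strand: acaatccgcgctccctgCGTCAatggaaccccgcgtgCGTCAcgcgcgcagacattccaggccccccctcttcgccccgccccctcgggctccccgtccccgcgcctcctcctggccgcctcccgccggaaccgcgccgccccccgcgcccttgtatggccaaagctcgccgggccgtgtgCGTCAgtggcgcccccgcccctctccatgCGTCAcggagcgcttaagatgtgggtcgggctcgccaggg
Nr4a2, chr2:57124004-57124253, minus strand: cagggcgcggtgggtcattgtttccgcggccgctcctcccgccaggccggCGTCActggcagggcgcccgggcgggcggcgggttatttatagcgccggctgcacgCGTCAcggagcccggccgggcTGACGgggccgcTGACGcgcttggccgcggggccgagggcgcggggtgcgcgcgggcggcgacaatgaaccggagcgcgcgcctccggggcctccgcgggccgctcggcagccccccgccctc
Nr4a3, chr4:48045055-48045152, plus strand: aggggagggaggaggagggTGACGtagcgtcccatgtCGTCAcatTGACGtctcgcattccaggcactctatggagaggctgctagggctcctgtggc

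The Nr4a1 window adjoins the start of the listed transcript, which begins at position 101266846. The Nr4a2 window lies upstream of the gene as GENCODE annotates it. The Nr4a3 stretch ends where the first GENCODE exon begins, and the Egr2 stretch lies before its listed start, within an intron of longer GENCODE transcripts. Each of the 3 Nr4a windows held 4 copies of TGACG on either strand, of which 3 fall in the stretch shown for Nr4a3. Among all 32536 promoter windows of the same length, 0.14% held at least 4 copies and 17.85% at least 1. The Egr2 windows held 0 to 2 copies, those of Tox2 0 to 1, and that of Nab2 0. This core was searched after the sequences had been seen.

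Longer motifs gave few matches, on either strand. The CArG box occurred in 1.48% of all windows. The Egr site GCGNGGGCG, which occurred in 4.74% of windows, was found once in the Nr4a1 window, on the minus strand, and once in that of Nr4a2, on the plus strand. The full cAMP response element TGACGTCA occurred in 1.56% of windows, the AP-1 site TGANTCA in 6.73% and the Nr4a site AAAGGTCA in 1.35%. The windows of Nr4a3, Nab2 and Tox2 held none of these 5 letter patterns. A match describes the letters and not a bound site, and TGACG overlaps the full element.

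**Figure D1:**
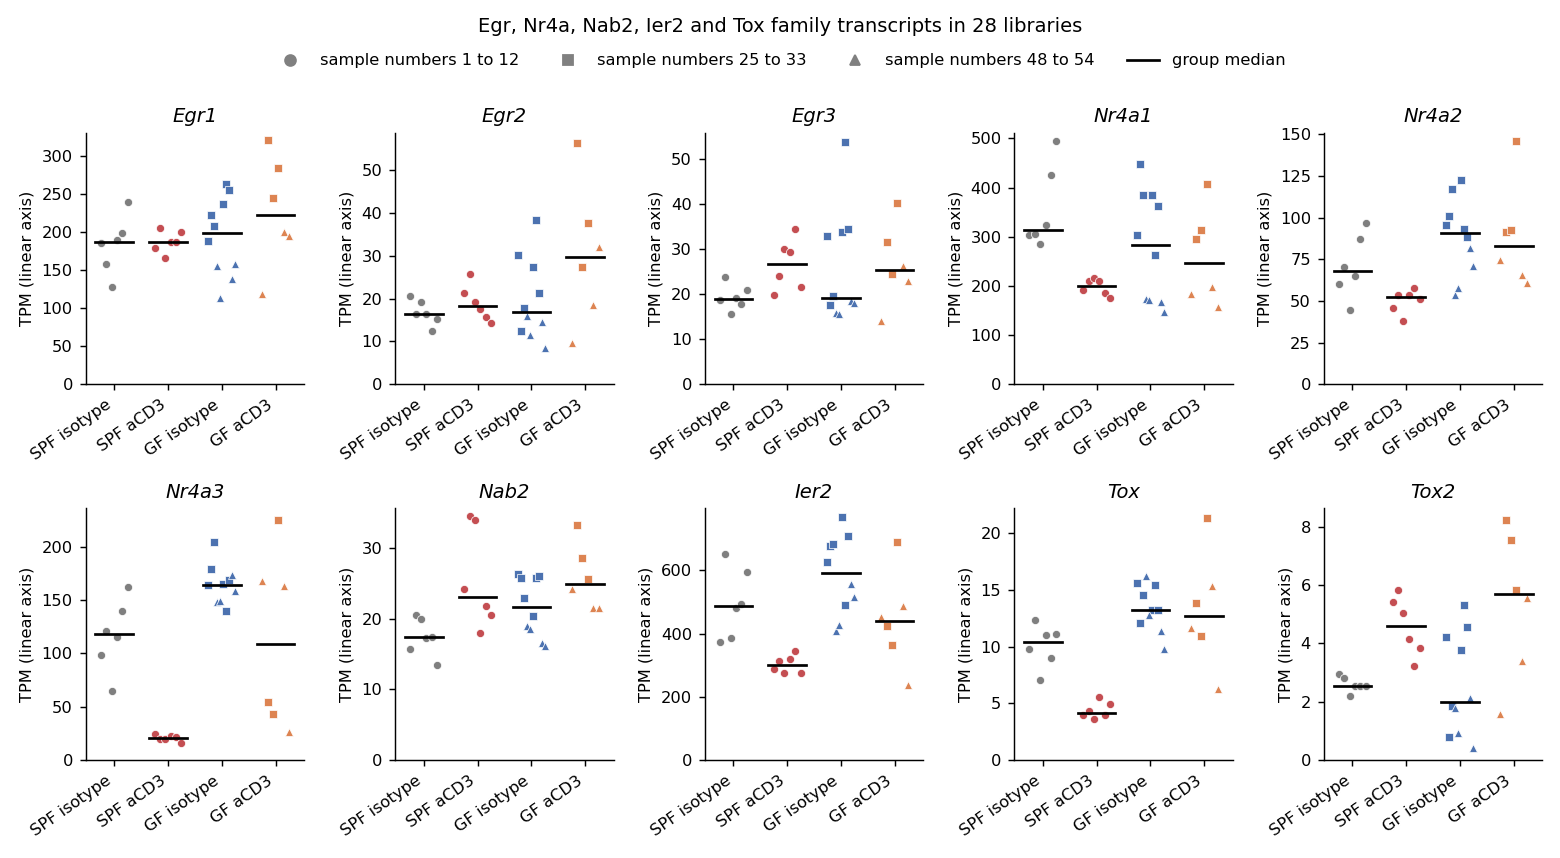
TPM of the 10 genes in each of the 28 libraries, on a separate linear axis for each gene. Points are libraries, ordered by group. After aCD3 the 6 SPF libraries of Nr4a3 lie at 16.4 to 24.4 TPM, below the whole isotype group, while the 6 GF libraries run from 26.7 to 225 TPM.

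The first comparison asked how aCD3 altered these genes in SPF mice, where 12 libraries were balanced for sex. Tests were run with limma on log2(TPM + 1) with group and sex as terms over all 28 libraries, and p-values were adjusted by Benjamini-Hochberg over the 12182 genes tested. A gene was called at an adjusted p under 0.05, and differences are on the log2(TPM + 1) scale. Of the 10 genes 6 were called, against a background of 64.8% of all genes. Called lower were 5 (background 50.7%) and called higher was 1 (background 14.2%). The median difference of the 10 genes was -0.21, beside -0.35 over all genes tested. The share of calls among the 10 genes was thus near that of the table as a whole. The ranges of both groups did not overlap for 5 of the 10, Nr4a1, Nr4a3, Ier2 and Tox below and Tox2 above, beside 41.9% of all genes.

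Nr4a3 (NM_001307989, mm10 chromosome 4, 48045305 to 48057839, plus strand) had a lowest value of 64.9, a median of 118 and a highest value of 163 TPM in the SPF isotype group. In the SPF aCD3 group these values were 16.4, 21.0 and 24.4 TPM. Every aCD3 library lay below every isotype library, and the aCD3 libraries were close to one another. The means were 117 ± 33.8 (SD, n = 6) and 20.8 ± 2.73 TPM (SD, n = 6), a log2 difference of -2.39 (SE 0.35, limma adjusted p = 6.77e-06). The nuclear receptor gene kept its call with each of the 28 libraries left out in turn, at -2.56 to -2.28.

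Nr4a1 (NM_010444, chromosome 15, 101266846 to 101274794, plus strand), which encodes Nur77, had 286, 314 and 495 TPM as its lowest, median and highest values under isotype in SPF mice. Under aCD3 it had 176, 201 and 216 TPM, and the groups again did not overlap. The log2 difference was -0.82 (SE 0.26, limma adjusted p = 0.00894). Nr4a2 (NM_013613, chromosome 2, 57107226 to 57115038, minus strand), which encodes Nurr1, had 44.9, 67.9 and 97.0 TPM under isotype and 38.1, 52.3 and 57.7 TPM under aCD3. Here only 1 aCD3 library lay below the isotype range, and the log2 difference was -0.47 (SE 0.20, limma adjusted p = 0.04295). The Nr4a2 call was lost without any one of 9 libraries, namely SPF isotype F1, F2, M2 and M3 and SPF aCD3 F1, F3, M1, M2 and M3, with adjusted p between 0.0517 and 0.105. The order of the fall was therefore Nr4a3, then Nr4a1, then Nr4a2, and differences between these 3 falls were not tested on this scale.

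Ier2 (NM_010499, chromosome 8, 84661331 to 84662852, minus strand), an immediate early gene whose product is a nuclear regulator, had 373, 487 and 652 TPM under isotype and 276, 301 and 346 TPM under aCD3. All aCD3 libraries were below all isotype libraries. The log2 difference was -0.68 (SE 0.19, limma adjusted p = 0.00323).

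Tox (NM_145711, chromosome 4, 6687386 to 6990723, minus strand) had 7.07, 10.4 and 12.4 TPM under isotype in SPF mice as its lowest, median and highest values. Under aCD3 the lowest was 3.66 and the highest 5.60 TPM. The groups did not overlap, and the log2 difference was -1.02 (SE 0.18, limma adjusted p = 3.86e-05). Tox2 (NM_001363064, chromosome 2, 163225454 to 163324169, plus strand), its closest relative in the list, had 2.19, 2.54 and 2.96 TPM under isotype and 3.23, 4.59 and 5.82 TPM under aCD3. Every aCD3 library was above every isotype library, so that Tox and Tox2 were separated in opposite directions. The Tox2 difference of 0.62 did not pass the test (limma adjusted p = 0.0872), in a fit whose spread is shared by all 4 groups, but was called higher in 6 of the 12 alternatives. For Tox the call held with each library left out, at -1.11 to -0.96.

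None of the 3 Egr genes was called in SPF mice in the fit as reported. Egr1 (NM_007913, chromosome 18, 34861207 to 34864956, plus strand) had 127, 187 and 239.7 TPM under isotype and 166, 186 and 206 TPM under aCD3, and the aCD3 values fell inside the isotype range. Its log2 difference was 0.06 (limma adjusted p = 0.805). Egr2 (NM_001347458, chromosome 10, 67537930 to 67542188, plus strand) had 12.5, 16.4 and 20.6 TPM under isotype and 14.25, 18.4 and 25.8 TPM under aCD3, a difference of 0.16 (limma adjusted p = 0.671). Egr3 (NM_001289927, chromosome 14, 70077795 to 70082613, plus strand) had 15.6, 18.9 and 23.7 TPM under isotype and 19.8, 26.8 and 34.5 TPM under aCD3, with 4 of 6 aCD3 libraries above the isotype range. The Egr3 difference was 0.42 (limma adjusted p = 0.110). Egr3 was called higher in 6 of the 12 alternatives and Egr1 in 2, among them median of ratios scaling and voom for both. The other 4 settings that called Egr3 were TPM without Rn45s and histone genes, only the groups compared, array weights and library number as a covariate. That covariate, here and below, set library numbers 48 to 54 against all others.

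Nab2 (NM_008668, chromosome 10, 127660918 to 127666703, minus strand), the Egr corepressor, had 13.5, 17.3 and 20.5 TPM under isotype and 17.9, 23.0 and 34.5 TPM under aCD3. Of the 6 aCD3 libraries 5 lay above the isotype range. The log2 difference of 0.50 (SE 0.15, limma adjusted p = 0.00468) made Nab2 the 1 gene of the 10 called higher in SPF mice, and it kept the call with each library left out. Its paralog Nab1, from the list of relatives, also rose, from 29.3 ± 4.88 to 40.5 ± 5.25 TPM (SD, n = 6 each; log2 difference 0.46, limma adjusted p = 0.000271).

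The scale moved part of this picture. With the TPM values scaled between libraries by the median of ratios, the median difference of all genes went from -0.35 to -0.01. The calls then split into 30.6% higher and 29.3% lower of all genes, in place of 14.2% and 50.7%. On that scale 6 of the 10 genes were called, against a background of 59.9%, but 4 were higher and 2 lower. Higher were Egr1 (0.48), Egr3 (0.83), Nab2 (0.91) and Tox2 (0.97). Lower were Nr4a3 (-1.99) and Tox (-0.67). Nr4a1 at -0.40, Nr4a2 at -0.05 and Ier2 at -0.26 were not called, nor was Egr2 at 0.57. Limma voom, on reads recovered from the TPM values, also called 6, beside 59.2% of all genes. These were the same 6: Egr1, Egr3, Nab2 and Tox2 higher, Nr4a3 and Tox lower. Without Rn45s and histone genes in the TPM, Nr4a1 and Nr4a2 were not called either, and Nr4a2 was not called with no filter or without the sex term. Nr4a3, Tox and Nab2 were called in the same direction in all 12 settings tried.

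Hspa1a and markers of other cells moved with aCD3 in SPF mice. Hspa1a, which encodes an inducible heat shock chaperone, was at 2639 to 5451 TPM in the SPF isotype libraries and at 158 to 451 TPM in the SPF aCD3 libraries (-3.73, limma adjusted p = 1.46e-06). Its near-identical neighbour Hspa1b differed by -3.55, and reads may be split between the pair. Of the 11 genes on the heat shock and dissociation stress list 6 were called lower and none higher, where 50.7% of all genes were called lower. Summed B and plasma cell markers were at 96.3 to 273 TPM under isotype and 3.16 to 9.25 TPM under aCD3, and summed stromal markers at 4.52 to 44.3 and 0.467 to 2.32 TPM. Summed myeloid markers were at 73.9 to 106 TPM under isotype and 142 to 212 TPM under aCD3, with S100a8 and S100a9 at 0 in every isotype library. That sum was carried by Cd68, a lysosomal protein gene of macrophages, at 5.99 ± 4.30 under isotype and 76.5 ± 19.6 TPM under aCD3 (SD, n = 6 each). Of the 6 myeloid markers tested 1 was called higher, Cd68, and 2 lower, among them Fcer1g (-1.11), with a median of -0.57. The part of these in the changes of the 10 genes was not tested.

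**Figure D2:**
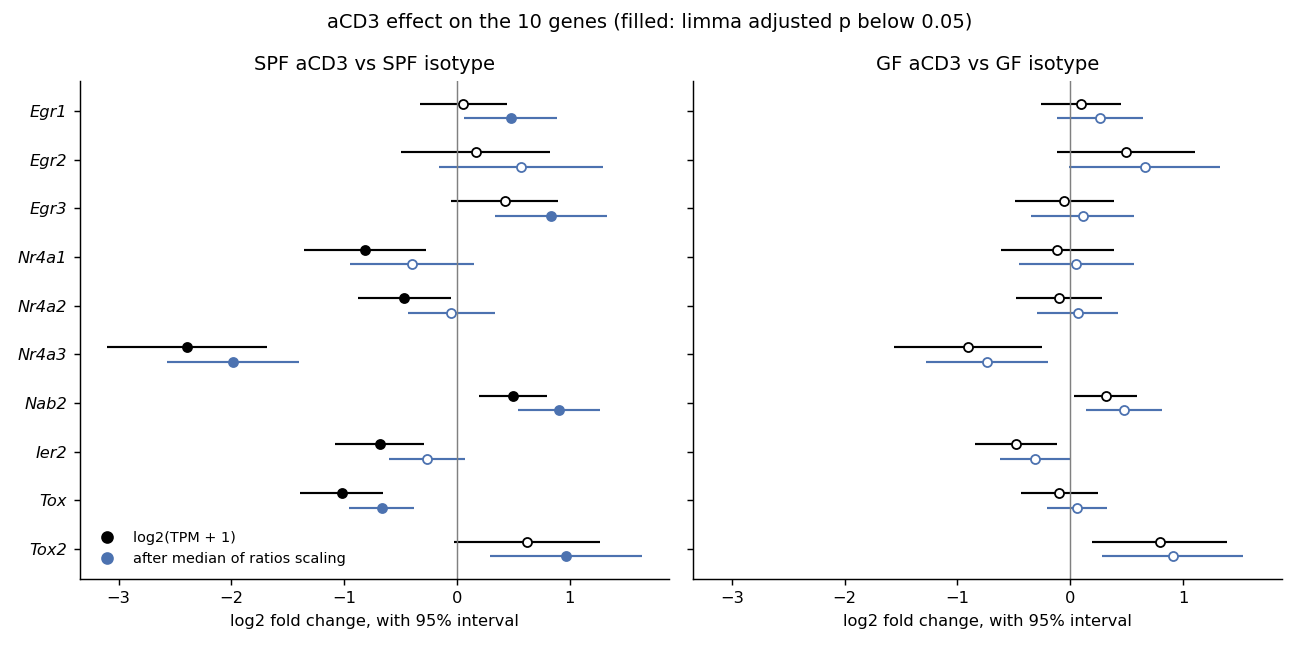
Log2 difference between aCD3 and isotype for the 10 genes in SPF and in GF mice, from limma on log2(TPM + 1), with 95% confidence intervals as bars. In SPF mice Nr4a3 stands lowest at -2.39 and Tox at -1.02, while in GF mice no gene was called.

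Ratios of relatives within a library do not depend on how libraries are scaled, and these were chosen after the values had been seen. The ratio of Nr4a3 to Nr4a1 had a median of 0.329 (0.227 to 0.396) in the SPF isotype libraries and 0.102 (0.0899 to 0.127) in the SPF aCD3 libraries. These ranges did not overlap, so within a library Nr4a3 stood lower against Nr4a1 after aCD3. In the GF isotype libraries the median was 0.538 (0.399 to 1.07), and the lowest value lay just above the SPF isotype range. In the GF aCD3 group F1, M3 and M4 had ratios of 0.922, 0.552 and 0.830, within the GF isotype range. That range held 0.399 to 0.542 in libraries numbered 25 to 30 and 0.859 to 1.07 in those numbered 48 to 51. M3 and M4 lay between these sets. The replicates M1, M2 and M5 had 0.185, 0.139 and 0.170, below the GF and the SPF isotype ranges.

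The ratio of Tox2 to Tox moved the other way in SPF mice, from a median of 0.257 (0.228 to 0.310) under isotype to 1.08 (0.740 to 1.38) under aCD3. Within the SPF aCD3 group the 3 female libraries had 1.35 to 1.38 and the 3 male libraries 0.740 to 0.820. In the GF isotype group the ratio was 0.0429 to 0.347. In the GF aCD3 group it was 0.595 in M1, 0.693 in M2 and 0.888 in M5, above all isotype libraries. It was 0.135 in F1, 0.275 in M3 and 0.222 in M4, within the GF isotype range. The same replicates thus stood near isotype for both ratios.

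**Figure D3:**
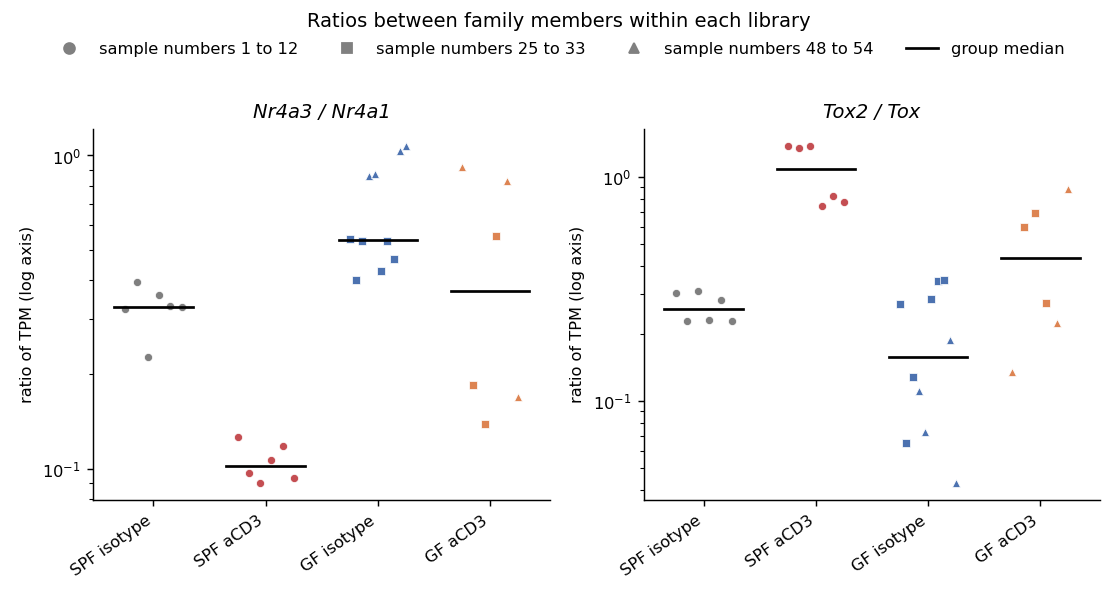
Ratio of Nr4a3 to Nr4a1 and of Tox2 to Tox in each library, by group, on log axes. SPF aCD3 libraries lie below SPF isotype in the first ratio (median 0.102 against 0.329) and above it in the second (1.08 against 0.257), and GF aCD3 libraries fall on both sides.

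In GF mice the comparison of 6 aCD3 with 10 isotype libraries called 0 of the 10 genes with limma, beside 7.08% of all genes. That background itself lay at the threshold, with no adjusted p below 0.0481. Over all genes no gene was called when any one of 25 of the 28 libraries was left out, the exceptions being GF aCD3 F1, M3 and M4. Calls over all genes were 0 with no filter, a pseudocount of 0.1, only the groups compared or the replicate block. They were 2472 without the sex term, 2215 with library number as a covariate, 3636 with array weights, 1117 with a filter at 5 TPM, 933 with a pseudocount of 5 and 618 without Rn45s and histone genes, beside 862 in the fit as reported. At an unadjusted p under 0.05 there were 4, Nr4a3, Nab2, Ier2 and Tox2, and limma voom on the recovered reads called 1, Tox2 (1.40, adjusted p = 0.0477), beside 7.72% of all genes. On the median of ratios scale 0 of the 10 were called, beside 9.73% of all genes. The ranges overlapped for all 10 genes, as they did for nearly the whole table, where 0.0657% of genes did not overlap. The median difference of the 10 genes was -0.07, beside -0.15 over all genes.

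Nr4a3 in the GF isotype libraries had 140.0, 165 and 205 TPM as lowest, median and highest values. In GF aCD3 it was at 168 TPM in F1, 54.7 in M1, 43.6 in M2, 225 in M3, 164 in M4 and 26.7 in M5. M1, M2 and M5 fell below every isotype library, F1 and M4 lay inside the isotype range and M3 above it. The log2 difference of -0.91 (SE 0.32) missed the threshold (limma adjusted p = 0.0635). It was called without GF aCD3 F1, M3 or M4 in turn, at -1.17 to -1.08. Within the libraries numbered 25 to 33 the difference was -0.94 and within those numbered 48 to 54 it was -0.71.

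Lag3, an inhibitory receptor gene on the list of reported Egr2 and Nr4a targets, stood apart in the same libraries. It was at 5.41 to 18.5 TPM in GF isotype, at 498 in M1, 452 in M2 and 527 in M5 of GF aCD3, and at 9.59 in F1, 17.0 in M3 and 12.3 in M4. The last 3 were inside the isotype range, although they are labelled aCD3. With GF aCD3 F1, M3 and M4 left out, a choice made after their values were seen and given as fold changes alone, the GF differences were -2.07 for Nr4a3, -0.85 for Ier2, -0.40 for Tox, 1.05 for Egr2 and 1.29 for Tox2. They were 0.28 for Egr1, -0.03 for Egr3, -0.10 for Nr4a1, -0.23 for Nr4a2 and 0.47 for Nab2. The GF list counts given further on include all 6 libraries. The median of all genes was then -0.34, close to the value of Tox. The GF aCD3 replicate M3 also held the most acinar marker RNA of all libraries, 512 TPM summed. The part of these libraries' makeup in the GF result was not tested.

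Tox2 in GF aCD3 was at 1.57 TPM in F1, 8.23 in M1, 7.54 in M2, 5.84 in M3, 3.40 in M4 and 5.57 in M5, beside 0.421 to 5.31 TPM in GF isotype. Of these 6 libraries 4 were above the isotype range, and the log2 difference was 0.79 (SE 0.29, limma adjusted p = 0.0693). Without F1 or M4 it was called, at 1.07 and 0.88. Egr2 in GF aCD3 was at 9.63 TPM in F1, 56.3 in M1, 27.4 in M2, 37.7 in M3, 18.6 in M4 and 31.98 in M5, beside 8.49 to 38.4 TPM in GF isotype. Only M1 exceeded the isotype range, and the difference of 0.50 (limma adjusted p = 0.226) was called only without F1, at 0.86.

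Ier2 in GF aCD3 was at 454 TPM in F1, 425 in M1, 365 in M2, 688 in M3, 486 in M4 and 237 in M5, beside 408 to 769 TPM in GF isotype. M2 and M5 were below that range. The difference of -0.48 (SE 0.18, limma adjusted p = 0.0699) was called without F1, M3 or M4, at -0.61 to -0.52. Nab2 differed by 0.31 (limma adjusted p = 0.104) and was called without F1, at 0.39, and with library number as a covariate, at 0.37. The remaining 5 genes were within 0.11 of isotype: Egr1 at 0.09, Egr3 at -0.05, Nr4a1 at -0.11, Nr4a2 at -0.10 and Tox at -0.10. All of these but Egr1 changed sign on the median of ratios scale. Without GF aCD3 F1 5 of the 10 genes were called, beside 29.8% of all genes. Without M4 3 were called, beside 31.7%, and without M3 2, beside 34.6%, so the latter counts were near or below the background.

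**Figure D4:**
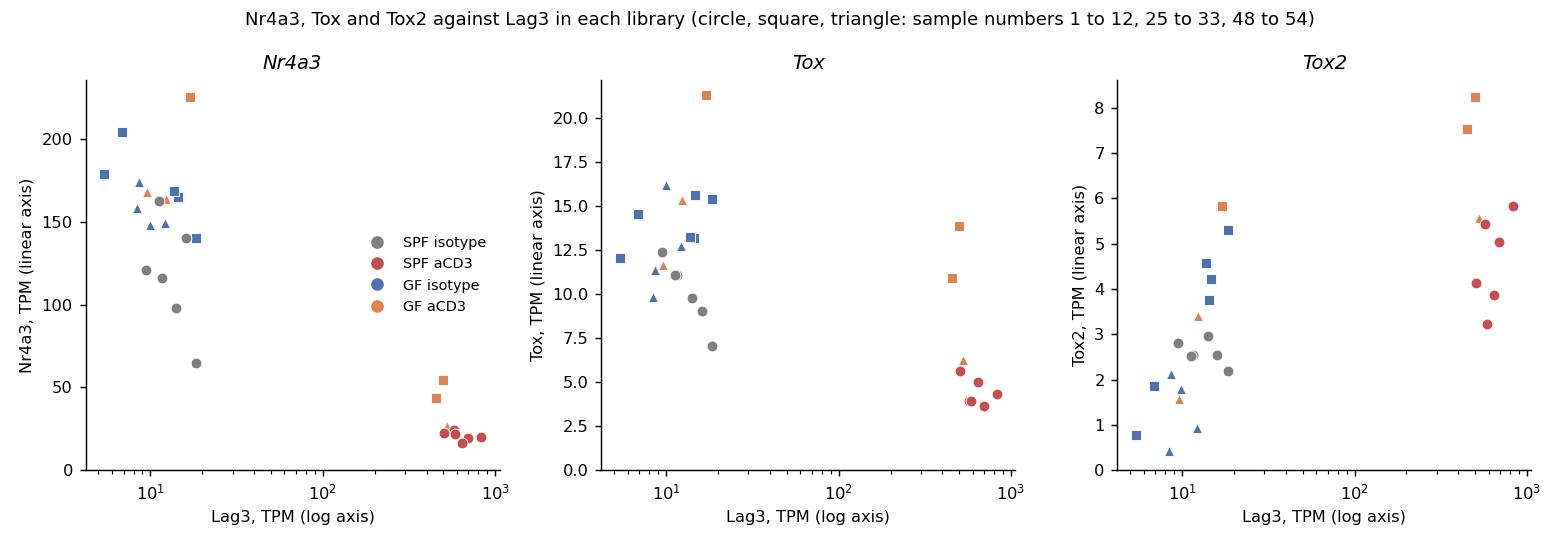
TPM of Nr4a3, Tox and Tox2, on linear axes, against that of Lag3, on a log axis, in each library. The GF aCD3 libraries M1, M2 and M5 lie at 452 to 527 TPM of Lag3, with the SPF aCD3 libraries, and F1, M3 and M4 at 9.59 to 17.0 TPM, with the isotype libraries.

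Between the aCD3 groups, 3 of the 10 genes were called higher in GF than in SPF mice and none lower, beside 53.3% of all genes called and 48.9% called higher. Nr4a3 was 2.03 higher (SE 0.36, limma adjusted p = 0.000326), Tox 1.31 (SE 0.18, limma adjusted p = 5.92e-05) and Nr4a2 0.67 (SE 0.20, limma adjusted p = 0.0086). For each of these 3 all 6 GF libraries lay above all 6 SPF libraries, as 13.0% of all genes did not overlap in either direction. Tox was at 6.27 to 21.3 TPM in GF aCD3 and 3.66 to 5.60 TPM in SPF aCD3. The mean of Nr4a3 was 5.48 times as high in GF and that of Tox 2.99 times.

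The median difference between the aCD3 groups was 0.36 for the 10 genes and 0.34 for all genes. On the median of ratios scale, where the median of all genes was 0.00 and calls split into 15.8% higher and 16.9% lower, 2 of the 10 stayed called, Nr4a3 at 1.63 and Tox at 0.97, beside 32.7% of all genes. Nr4a2 was then at 0.27 (limma adjusted p = 0.289). Ier2, at 0.44 (limma adjusted p = 0.0595), was called without GF isotype F4, GF aCD3 M2 or GF aCD3 M5, and Egr2 without GF aCD3 F1, at 0.81. Without GF aCD3 F1, M3 and M4 together the values were 0.87 for Nr4a3, 1.01 for Tox and 0.55 for Nr4a2. Markers of other cells moved with this comparison, with 6 of 7 tested acinar markers called higher in GF (median 2.36), Jchain of plasma cells higher by 2.00 and Cd68 at -1.89 (limma adjusted p = 0.00475). Their part was not tested. This comparison shares its aCD3 libraries with those above, and colonisation and library number cannot be told apart in it.

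The difference between the aCD3 effects of GF and SPF mice was tested in the same fit. Tox was the 1 gene of 10 called, with an effect 0.93 higher in GF mice (SE 0.25, limma adjusted p = 0.0396), beside 3.48% of all genes called and 2.44% called higher. The Tox call was lost without any one of 18 libraries, with adjusted p from 0.0509 to 0.0972. These were SPF isotype F1, F2, M1, M2 and M3, SPF aCD3 F1, F2, F3, M2 and M3, GF isotype F2, F5, M1, M3 and M5, and GF aCD3 F1, M3 and M4. It was also lost with the replicate block (adjusted p = 0.0868), with no filter (0.0581) and with a pseudocount of 5 (0.0653). Without GF aCD3 F1, M3 and M4 together it was 0.62. For Nr4a3 the difference was 1.49 (SE 0.47, limma adjusted p = 0.0601), called without SPF isotype F3 or GF aCD3 M1, M2 or M5, and 0.33 without F1, M3 and M4. Hspa1a also had a higher aCD3 effect in GF mice, by 2.80 (limma adjusted p = 0.0218), as did the plasma cell gene Jchain (4.42) and the stromal genes Dcn (2.49) and Col1a1 (2.40), while Cd68 had a lower one (-2.84). All 5 were called, and their part was not tested. On the median of ratios scale both Tox and Nr4a3 were called, Tox at 0.72 and Nr4a3 at 1.25, 2 of 10 beside 11.7% of all genes.

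Without aCD3, 0 of the 10 genes were called between GF and SPF isotype libraries with limma, beside 7.17% of all genes. At an unadjusted p under 0.05 there were 2, Nab2 and Tox, and limma voom called 0. On the median of ratios scale 0 were called, beside 1.63%, and ranges overlapped for all 10 genes, beside 2.63% of genes that did not overlap. Tox differed by 0.39 (limma adjusted p = 0.135), with 7 of 10 GF libraries above the SPF range of 7.07 to 12.4 TPM. Nr4a3 differed by 0.54 (limma adjusted p = 0.279), with 6 of 10 above. Nr4a1 was at -0.42, with 5 of 10 GF libraries below the SPF range. The median of the 10 genes was 0.27 and of all genes 0.15. Hspa1a was at 146 to 1704 TPM in the GF isotype libraries, below the SPF isotype range of 2639 to 5451 TPM, and summed B and plasma cell markers were at 11.3 to 114 beside 96.3 to 273 TPM. Summed stromal markers were at 0.715 to 3.33 TPM in GF and 4.52 to 44.3 TPM in SPF isotype libraries, with no overlap, and all 3 tested were called lower in GF (median -2.29). Their part in these differences was not tested.

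The GF isotype libraries themselves fell into those numbered 25 to 30 (n = 6) and 48 to 51 (n = 4), and several of the 10 genes differed between them. This comparison was added after the values had been seen. Of the 10 genes 5 were called lower in the later numbers, beside 10.3% of all genes called and 4.4% called lower. They were Nr4a1 (-1.10, limma adjusted p = 0.00263), Egr1 (-0.70, 0.00427), Nab2 (-0.46, 0.0111), Nr4a2 (-0.64, 0.0192) and Egr3 (-0.78, 0.0447). Nr4a1 was at 262 to 448 TPM in the earlier and 147 to 173 TPM in the later numbers. All 4 later libraries lay below all earlier ones for Egr1, Nr4a1, Nr4a2 and Nab2, beside 4.53% of all genes. Nr4a3 at -0.11 and Tox at -0.16 were not called. Hspa1a moved with library number too, at -1.90 (limma adjusted p = 0.00815). Of 11 heat shock list genes 3 were called lower, and of 20 other immediate early genes 7 lower, with none higher in either list. Of 6 myeloid markers 1 was called higher and 1 lower, and of 7 epithelial markers 1 higher, beside 5.86% of all genes called higher. The part of these in the differences of the 10 genes was not tested. Both GF groups hold libraries of both number ranges.

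Sex was a term of the same fit. With limma 0 of the 10 genes were called between male and female libraries, beside 0.107% of all genes. At an unadjusted p under 0.05 there were 3, with Egr1 at 0.34, Egr3 at 0.40 and Nab2 at -0.22 in males against females. Voom was not run for sex.

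The surrounding pathway was described from lists of genes. In SPF mice the counts below stand beside 14.2% of all genes called higher and 50.7% lower, and those on the median of ratios scale beside 30.6% and 29.3%. Nothing particular to a list is read from them. Of 10 tested factors that act upstream of these promoters (SRF, its cofactors, ETS and CREB family members) 1 was called higher in SPF aCD3 and 7 lower, with a median of -0.64 beside -0.35 over all genes. Srf, the CArG-binding factor, went from 25.8 ± 3.47 to 34.4 ± 2.20 TPM (SD, n = 6 each; 0.41). Mrtfa, its actin-regulated cofactor, went from 16.3 ± 2.65 to 7.85 ± 0.840 TPM (-0.96), and Crem, a CREB relative, from 136 ± 25.7 to 68.8 ± 9.76 TPM (-0.96). On the median of ratios scale 3 were higher and 6 lower. In GF mice none of these 10 was called on the TPM scale, and 2 were called higher on the median of ratios scale, beside 5.62% of all genes.

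Of 10 calcineurin and NFAT genes, which carry the calcium arm of receptor signalling, 1 was called higher and 7 lower in SPF aCD3, with a median of -0.53. Nfatc3 went from 42.8 ± 5.78 to 58.0 ± 6.34 TPM (SD, n = 6 each; 0.44), Nfatc2 from 24.0 ± 4.00 to 8.97 ± 0.700 TPM (-1.31) and the calcineurin subunit gene Ppp3cc from 13.5 ± 3.64 to 5.32 ± 0.851 TPM (-1.17). On the median of ratios scale the split was 1 higher and 5 lower. In GF mice 1 of the 10 was called, lower. This and the other GF counts of the lists on the TPM scale stand beside 2.46% of all genes called higher and 4.61% lower, all at adjusted p of 0.0481 or above. These TPM-scale calls were all lost when any one of 25 of the 28 libraries was left out, which are those other than GF aCD3 F1, M3 and M4.

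Of 20 other immediate early genes 3 were called higher and 15 lower in SPF aCD3, with a median of -1.55. Fos, an AP-1 subunit gene, went from 2635 ± 331 to 495 ± 53.5 TPM (SD, n = 6 each; -2.41) and Jun, its partner, from 2296 ± 484 to 432 ± 42.5 TPM (-2.39). Irf4, induced in proportion to receptor signal, went from 55.7 ± 11.8 to 90.1 ± 19.8 TPM (0.68). The median of ratios scale gave 4 higher and 13 lower. In GF mice 6 were called lower and none higher, calls of the same fit at the threshold. For 7 of the 20 the difference between the aCD3 effects was called, higher in GF, beside 2.44% of all genes. Over all genes the number of such differences went from 424 to between 32 (without GF aCD3 F1) and 3187 (without GF aCD3 M5) with 1 library left out.

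Of 19 tested genes reported as targets of Egr2, Egr3 or Nr4a factors 9 were called higher and 8 lower in SPF aCD3, with a median of 0.15. Lag3 went from 13.5 ± 3.35 to 637 ± 112 TPM (SD, n = 6 each; 5.47) and Havcr2, which encodes the inhibitory receptor TIM-3, from 0.891 ± 0.310 to 30.7 ± 3.25 TPM (4.08). Il2, the cytokine gene that Egr2 and Egr3 are known to restrain, went from 16.8 ± 3.45 to 0.341 ± 0.302 TPM (-3.74), and Spry1, a feedback inhibitor of MAP kinase signalling, from 33.2 ± 7.38 to 13.5 ± 5.44 TPM (-1.30). In GF mice 6 of the 19 were called higher and 1 lower, again at the threshold. Of 13 genes expressed with Tox in persistently stimulated T cells, a list that shares Lag3 and Havcr2 with the one above, 8 were called higher and 3 lower in SPF aCD3, with a median of 0.54. Among the lower were Tcf7 (-1.58), which encodes the stem-like T cell factor TCF-1, and Bcl6 (-0.86), the follicular helper factor. Tox itself was called lower in the same comparison. The list was written with earlier results of these data known, so no contrast with Tox is read from it. On the median of ratios scale 10 of the 19 target genes were higher and 5 lower, and 9 of these 13 genes higher and 3 lower.

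The profiles most like each gene were taken over the 28 libraries by Pearson's r of log2(TPM + 1), as a description across libraries that share depth and group. Nr4a3 was most like Homer1 (0.99) and Dusp10 (0.99), and Tox most like Dleu2 (0.96) and Runx1 (0.96). Ier2 was most like Slc38a2 (0.95), Egr2 like Tnfsf8 (0.89), Tox2 like Batf (0.89), Nr4a2 like Mynn (0.88) and Nr4a1 like Zfp36 (0.87). The closest profile to Nab2 was Tcof1 (0.82), to Egr1 Rasgef1b (0.81) and to Egr3 Cass4 (0.79).

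Among the 10 genes themselves, after group means were subtracted, Egr2 and Tox2 varied together most closely (r = 0.91), followed by Nr4a1 and Nr4a2 (0.80), Nr4a2 and Ier2 (0.77), Egr1 and Nr4a1 (0.75) and Nr4a3 and Ier2 (0.74). Egr2 and Nr4a3 went apart (-0.31). Nr4a3 and Tox had an r of 0.89 over all 28 libraries, 0.65 after group means were subtracted and -0.17 within the GF isotype group. The libraries share group and depth, and these values are given as a description without p. Subtracting group means leaves in the differences by library number within the GF groups, and those between high and low Lag3 within GF aCD3.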

How the data were processed

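Bulk RNA-seq values for 28 libraries were taken from 1 deposited table of TPM, made by the authors from reads mapped to mm10 per the file headers. The submitters' processing notes name R 4.4.2, Seurat 5.1.0 and Cell Ranger 7.1.0; the aligner and counter are not given in the sources used here. Per the file headers the deposited table also holds a gene length, which equals the genomic span for 99.24% of genes. Another 26 TPM columns matched no library here and were not used.

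Reads were recovered from the TPM steps and lengths: 100% of values up to 20 reads came out whole within 0.1 read. Genes with at least 1 TPM in at least 6 libraries were tested with limma 3.58.1 in R 4.3.3 on log2(TPM + 1), with group and sex, over all 28 libraries, and Benjamini-Hochberg adjustment over 12182 genes. Tables were handled with Python 3.11.15, NumPy 2.4.6 and pandas 2.3.3. The fit was tested on simulated data.

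All 10 genes were named in every comparison. From each pathway list, up to 2 genes with the highest and 2 with the lowest called difference in SPF mice and at least 5 TPM were candidates for naming. The genes, lists and promoter motifs were chosen with earlier results of these data known. Alternatives were another pseudocount, no filter, TPM without Rn45s and histones, median of ratios scaling of the TPM, voom and no sex term. Others were only the groups compared, array weights, a replicate block, a library number term and each library left out. The library number term set numbers 48 to 54 against all others.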

Additional observations from a re-analysis of the deposited data

Results flagged for a closer look

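Egr3 in the GF isotype replicate M2 was at 53.9 TPM, while the other 9 libraries of that group lay at 15.6 to 34.4 TPM. Its gap to the next library was 0.508 of the group's whole range. It was the 1 found among 40 groups of values screened, and chance gives about 1 in 20. The aCD3 effect on Tox differed between GF and SPF mice, by 0.93 on the log2 scale (SE 0.25, limma adjusted p = 0.0396), and that call is lost without any one of 18 of the 28 libraries and with the replicate block, no filter or a pseudocount of 5.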

How the results depend on the processing

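Of 2020 values recomputed for the 10 genes under the alternatives, 1830 kept their direction and their side of the threshold, and 81 changed direction. Depth limits Egr2, which had 64 to 364 recovered reads in a library, more than it limits Nr4a1, with 1874 to 7368. The GF aCD3 group rests on 6 libraries with a wide spread. The causes of the changes below were not tested.

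The number of the 10 genes called for the GF aCD3 effect was 0. It was 1 with voom (7.72% of all genes called there), 2 without the sex term (20.3%), 2 with array weights (29.8%), 2 with library number as a covariate (18.2%) and 0 to 5 with single libraries left out. For GF against SPF isotype it was 0, and it was 1 without Rn45s and histone genes (19.0% of all genes), 2 with only the groups compared (14.9%), 1 with array weights (15.6%) and 2 with the replicate block (5.4%). For the SPF effect it was 6, beside 64.8% of all genes, and 5 to 8 under the alternatives. Over the 12 settings the share of all genes called ran from 41.3% (no filter) to 72.1% (array weights). The Nr4a2 call was lost in 5 of 12 settings (median of ratios scaling, voom, no Rn45s and histone genes, no filter, no sex term), that of Nr4a1 in the first 3 of these and that of Ier2 in the first 2. For GF against SPF aCD3 it was 3, and it was 5 with the replicate block (46.9% of all genes), 4 without the sex term (53.3%), 2 with voom (35.8%) and 2 with median of ratios scaling (32.7%). For the difference of the aCD3 effects it was 1. It was 0 with a pseudocount of 5 (2.24% of all genes), with no filter (1.13%) or with the replicate block (0.14%). It was 2 with median of ratios scaling (11.7%), voom (14.9%) or library number as a covariate (4.57%), and it was 0 to 2 with single libraries left out.

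The replicate names did not pair libraries, since the deviations of the 6 same-named pairs correlated at -0.03 to 0.10 in SPF and -0.21 to 0.20 in GF mice, with 1 and 3 of the 6 above 0.1. With the replicate block 6 of the 10 genes were called in SPF mice, as without it, and the whole table gave 7589 calls in place of 7898. For GF against SPF the block joined libraries of the same replicate name across SPF and GF mice. Deviations of such pairs were not compared. Values that changed direction with the block were Tox2 at 0.077 for GF against SPF isotype, Egr3 at 0.018 and Tox2 at 0.20 for GF against SPF aCD3, and Tox2 at -0.059 for the difference of effects.

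For the SPF effect Egr1 changed direction with array weights (-0.015) and lay at -0.012 to 0.11 with single libraries left out. For the GF effect values of Egr1, Egr3, Nr4a1, Nr4a2 and Tox changed direction, that of Egr1 with 1 library left out, and none of these genes was called in the fit as reported. With median of ratios scaling Egr3 was 0.11, Nr4a1 0.055, Nr4a2 0.066 and Tox 0.056, and with voom they were 0.21, 0.054, 0.075 and 0.053. Without Rn45s and histone genes they were 0.069, 0.0105, 0.022 and 0.015. Egr3 was 0.082 without the sex term. With library number as a covariate Egr3 was 0.033 and Nr4a1 0.016. Within library numbers 25 to 33 Nr4a1 was 0.018, Nr4a2 0.098 and Tox 0.083. Within 48 to 54 Egr3 was 0.18, Nr4a1 0.13 and Nr4a2 0.0023. With single libraries left out Egr1 was -0.0034 to 0.26, Egr3 -0.16 to 0.089, Nr4a1 -0.25 to 0.0098 and Tox -0.23 to 0.073.

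For GF against SPF isotype Egr1 was -0.098 with median of ratios scaling and -0.11 with voom, and Egr2 -0.035 and -0.11. With single libraries left out Egr1 was -0.0084 to 0.13 and Egr2 -0.002 to 0.24. For GF against SPF aCD3 Egr1 was -0.31 with median of ratios scaling, -0.31 with voom and -0.011 without Rn45s and histone genes. Nr4a1 was -0.13 with median of ratios scaling and -0.13 with voom, and Nab2 -0.29 and -0.34. Tox2 was 0.037 with a pseudocount of 5, 0.086 without the sex term, 0.011 with only the groups compared, 0.18 with array weights and 0.50 without GF aCD3 F1, M3 and M4. It was -0.13 to 0.28 with single libraries left out.

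For the difference of effects Egr1 was -0.22 with median of ratios scaling, -0.20 with voom and -0.11 without Rn45s and histone genes. Ier2 was -0.049 and -0.037 with the first 2 of these and -0.17 without GF aCD3 F1, M3 and M4, and Tox2 was -0.0597 with median of ratios scaling. With single libraries left out Egr1 was -0.059 to 0.21 and Tox2 -0.018 to 0.45.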
